A study of Rattus norvegicus with 6 samples.

Results

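Circular RNAs (circRNAs) are closed RNA loops made when a downstream splice site is joined back to an upstream one, and each is counted from reads that cross this back-splice junction. The circRNAs described here came from host genes for regulators of small GTPases. They were taken by gene symbol: every circRNA in sense or intronic to a host whose symbol starts with Arhgap, Arhgef, Dock, Rapgef, Rasgrf, Rasal, Rasa, Tbc1d, Dennd, Agap, Arap or Asap, without Tbc1d5 and without antisense circRNAs. This gave 209 circRNAs from 72 host genes, of 11061 circRNAs and 4501 hosts in the table, 4443 of them with a circRNA that is not antisense. They held 2082 back-splice reads, or 2.17% of all. Of the 12 prefixes, Rasgrf and Rasal had no circRNA. All 72 symbols are current ones in RefSeq (rat assembly GRCr8), from which names alone were taken.

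The tissue was spinal cord from Wistar rats aged 8 weeks. In 3 libraries it came from rats whose cord had been cut through (spinal cord injury, SCI); the design text calls the cut complete, while the title can also be read as incomplete. The other 3 came from controls, called wild type in the design text, that had only a laminectomy, the removal of vertebral bone over the cord (sham). Neither the time from surgery to collection nor the position of the piece sampled is given in the sources used here. Nothing in the labels states that each library is a separate rat, and p-values therefore take in only the spread from library to library, which may be technical.

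Small GTPases are molecular switches that are active when bound to GTP. Guanine nucleotide exchange factors (GEFs) load them with GTP, and GTPase-activating proteins (GAPs) speed up GTP hydrolysis and turn them off. Rac, Cdc42 and related GTPases, on which the Arhgap, Arhgef and Dock proteins act, shape actin and axon growth, Ras and Rap relay growth factor and adhesion signals, Rab proteins direct vesicle traffic, and Arf proteins act on membrane budding. A circRNA is a product of the host gene's splicing, and its level need not follow that of the mRNA or protein.

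Library depth differed by group. SCI libraries held 19603 to 21255 back-splice reads and sham libraries 9805 to 12722. Levels are therefore given as CPM or as a share of each library's back-splice reads, per junction and not divided by length. CPM are reads scaled by a library's total over tested features and by its scaling factor from edgeR (TMM). In the host fit these factors were 0.951 to 0.972 in SCI and 0.998 to 1.09 in sham. One read was worth 76.9 to 84.8 CPM in SCI and 126 to 165 CPM in sham in the host fit. Reads carry no molecular identifiers, so intervals and floors cover counting error only. Marker hosts of cord cell types were thinly covered. Oligodendrocyte markers had reads for 8 of 11 genes, Mbp and Mog among them, and took 0.199% to 0.231% of reads in SCI and 0.172% to 0.255% in sham. Neuronal markers had reads for 8 of 14 genes (0.0282% to 0.0767% and 0.0408% to 0.0707%), with Rbfox3 and Tubb3 at 0, and astrocyte markers for 6 of 10 (0.0336% to 0.0765% and 0.0612% to 0.0865%). Of 10 microglia and macrophage markers 1 had reads (2 in SCI, 0 in sham), oligodendrocyte precursor markers had 2 of 7 (5 reads in SCI, 7 in sham), Schwann cell markers 1 of 6 (Prx, 2 reads), and leukocyte markers 0 of 7. Endothelium and pericyte markers had reads for 4 of 10 genes: Flt1, Tek, Vwf and Abcb1a. Pecam1, Cldn5, Kdr, Slco1a4, Pdgfrb and Rgs5 were at 0. The list had 14, 6 and 8 reads in SCI, against 11, 12 and 12 in sham. As shares these were 0.0288% to 0.0659% in SCI and 0.0943% to 0.122% in sham, the only marker list without overlap.

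Small GTPase regulator hosts took a share of back-splice reads that overlapped between injured and sham cord. In SCI libraries they had 469, 468 and 391 reads, or 2.21%, 2.24% and 1.99% of the library. In sham libraries they had 272, 242 and 240 reads, or 2.34%, 2.47% and 1.89%. Means were 2.15% ± 0.135 for SCI and 2.23% ± 0.305 for sham (SD, n = 3 each), and the groups overlapped. For a single library the 95% Wilson interval ran from 2.02% to 2.41% in SCI replicate 1 and from 1.66% to 2.14% in sham replicate 3. In bulk cord, fewer cells of a type and less RNA per cell cannot be told apart.

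More of these circRNAs had at least 1 read in SCI libraries (88, 94 and 82) than in sham libraries (57, 57 and 41). They came from 43 to 46 hosts per SCI library and 24 to 36 per sham library. Thinned to 9805 reads, the expected numbers were 67.4, 73.1 and 64.4 in SCI and 56.0, 57 and 40.3 in sham, with no overlap. All circRNAs of the table differed in the same direction at that depth, with means of 3513 and 2447. As a share of the circRNAs seen in a library, those of small GTPase regulators made up 1.83% to 2.06% in SCI and 1.92% to 2.23% in sham, with overlap.

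The reads were concentrated in a few hosts. Arhgap32, Dennd5b and Rasa2 gave 931 of the 2082 reads, or 44.7%, and the 10 most-read hosts gave 72.1%. Only 5 hosts had 100 or more reads in all, 30 had 10 or more, and 42 had fewer than 10. By family, Rab GEFs (the Dennd genes) gave 28.5% of these reads, Arhgap GAPs 26.9%, Ras GAPs (Rasa) 15.1% and Arf GAPs (Agap, Arap, Asap) 9.61%. Dock exchange factors gave 5.81%, Rab GAPs (Tbc1d) 5.62%, Arhgef exchange factors 4.51% and Rap GEFs (Rapgef) 3.89%.

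**Figure D1:**
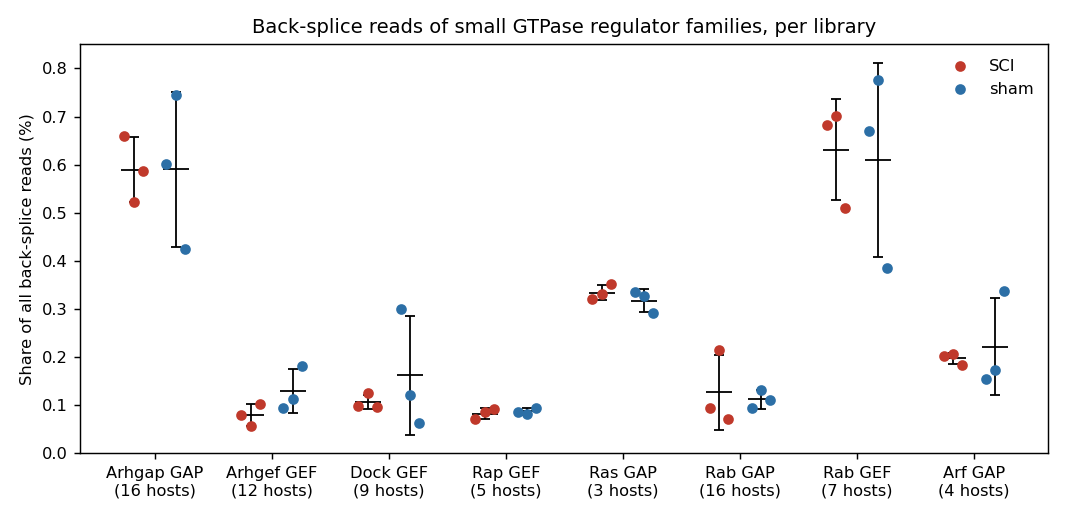
Share of all back-splice reads (percent, y axis) taken by each of 8 regulator families in each library, with SCI in red and sham in blue; black bars are means and SD over 3 libraries. In every family the SCI and sham libraries overlap.

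Ras GAPs, which have 3 hosts, took 0.320%, 0.331% and 0.352% of reads in SCI and 0.335%, 0.326% and 0.291% in sham. The range was narrow in both groups. Rab GEFs took 0.631% ± 0.105 for SCI and 0.610% ± 0.202 for sham, and Arhgap GAPs 0.589% ± 0.0679 and 0.590% ± 0.160 (SD, n = 3 each). Arhgef exchange factors took 0.0799% ± 0.0222 for SCI and 0.129% ± 0.0456 for sham, and Dock factors 0.107% ± 0.0155 and 0.162% ± 0.124 (SD, n = 3 each). The Dock value in sham rests on replicate 1 at 0.301%, against 0.122% and 0.0629% in the other sham libraries. Rap GEFs stood at 0.0829% and 0.0873%, Rab GAPs at 0.127% and 0.112%, and Arf GAPs at 0.197% and 0.222% (means in SCI and sham). The Rab GAP mean in SCI rests on replicate 2 at 0.216%, against 0.0941% and 0.0714% in the other SCI libraries. The Arf GAP mean in sham rests on replicate 3 at 0.338%. The other sham libraries, at 0.155% and 0.173%, lay below the SCI libraries (0.184% to 0.206%). All 8 families overlapped between groups.

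As for which single hosts differ between injured and sham cord, 0 of the 14 small GTPase regulator hosts tested passed at an adjusted p under 0.05 (edgeR's quasi-likelihood test), and 1 had an unadjusted p under 0.05. Over all 647 hosts tested, 2 passed, or 0.309%, 1 higher and 1 lower in SCI (0 and 1 with DESeq2 size factors in edgeR, 1 and 2 without scaling factors), and 6.49% had an unadjusted p under 0.05. DESeq2 also called 0 of the 14, with 1 at an unadjusted p under 0.05, beside 4 and 52 of all 647 hosts. The other 58 hosts fell under the filter on low counts, and their values are given as reads. Of the 14, 6 had a positive log2 fold change and the median was -0.18, beside 384 of 647 and a median of 0.14 over all hosts tested. These values depend on the settings. Without scaling factors they were 6 of 14 and -0.27, beside 334 of 647 and 0.04. With a minimum count of 10, 5 of the 7 tested were positive (median 0.09), beside 162 of 309 (median 0.03). A difference of 2-fold would often be missed at this depth. In counts simulated from these libraries, 703 hosts were tested. Of those changed 2-fold, 11.5% were called, with 59.0% of those changed 4-fold and 93.7% of those changed 8-fold. The simulation gave every host the same dispersion (extra spread between libraries), and the percentages are over changed hosts that passed the filter. The log2 changes below are log2 fold changes of SCI over sham with the standard error (SE), and adjusted p is from edgeR's quasi-likelihood test with Benjamini-Hochberg adjustment over all hosts.

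**Figure D2:**
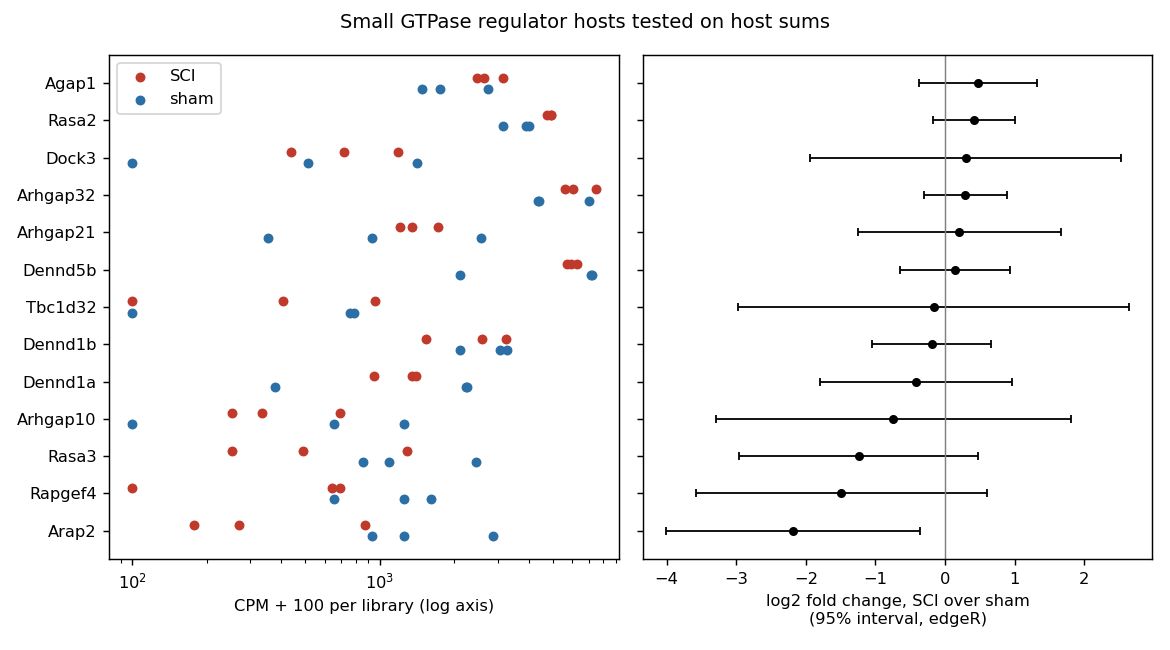
Level of 13 of the 14 tested hosts in each library (CPM + 100, log axis, left; SCI red, sham blue) and log2 change of SCI over sham with its 95% interval (right). Arap2, at the bottom, is the host whose interval does not include 0, and the 5 most-read hosts have intervals between -1.04 and 1.32.

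Among the Arhgap genes, Arhgap32 was the most-read host of all. It encodes a brain-enriched GAP found at dendritic spines with NMDA receptors. It had 96, 71 and 70 reads in SCI, against 31, 42 and 34 in sham, or 6285 ± 972 and 5168 ± 1523 CPM (SD, n = 3 each). The libraries overlapped, and the log2 change was 0.29 (SE 0.28 and adjusted p = 0.982, edgeR). Arhgap21, a GAP of the Golgi, had 21, 16 and 13 reads in SCI, against 6, 15 and 2 in sham. It lay at 0.21 (SE 0.68, adjusted p = 0.986, edgeR), and the sham libraries spread more widely than the SCI libraries. Without sham replicate 2 it lay at 1.44. Arhgap10, a GAP with a membrane-bending BAR domain, had 2, 3 and 7 reads against 4, 7 and 0, at a log2 change of -0.74 (SE 1.19), and at 0.39 without sham replicate 2. Arhgap12, a GAP for Rac, had 5, 5 and 2 reads against 3, 6 and 3 and was under the filter. The other 12 Arhgap hosts had 3 to 23 reads each over the 6 libraries.

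Arhgef exchange factors gave fewer reads. Arhgef18 had 1, 3 and 0 reads in SCI, against 0, 0 and 6 in sham, and Arhgef6, an exchange factor for Rac and Cdc42, 1, 2 and 5 against 2, 0 and 0. Both overlapped between groups and were under the filter. Of the 12 hosts of this family, 9 had 2 to 9 reads each.

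The Dock genes encode a separate class of exchange factors for Rac and Cdc42. Dock3, a mainly neuronal one, had 8, 14 and 4 reads in SCI, against 3, 8 and 0 in sham, at a log2 change of 0.30 (SE 1.04 and adjusted p = 0.986, edgeR), and at 1.84 without sham replicate 2. Dock1, the founding member of the class, had 2, 7 and 4 reads against 5, 2 and 2 and was under the filter. Both hosts overlapped between groups.

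Rap exchange factors had 5 hosts. Rapgef4, also called Epac2, is opened directly by cAMP. It had 7, 0 and 7 reads in SCI, against 4, 7 and 12 in sham, or 377 ± 328 and 1074 ± 487 CPM (SD, n = 3 each), at a log2 change of -1.49 (SE 0.97 and adjusted p = 0.938, edgeR). Without SCI replicate 2, the library with 0 reads, it was -0.88. Rapgef2, a PDZ-domain Rap exchange factor, had 8, 6 and 7 reads in SCI, against 3, 0 and 0 in sham, a ratio to totals of 3.87 (exact 95% interval 1.16 to 20.3). The related Rapgef6 had 0, 10 and 4 reads against 0, 1 and 0, a ratio of 7.75 (1.18 to 328). Both were under the filter, and their intervals take in counting error but not the spread between libraries.

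Of the Ras GAPs, Rasa2 and Rasa3 belong to the same subfamily, whose members bind membrane lipids. Rasa2 had 63, 62 and 55 reads in SCI, against 22, 23 and 31 in sham, or 4781 ± 99.5 and 3583 ± 475 CPM (SD, n = 3 each). All 3 SCI libraries lay above all 3 sham libraries, at a log2 change of 0.42 (SE 0.27, 95% interval -0.17 to 1.01), and Rasa2 did not pass the test (adjusted p = 0.938, edgeR). Rasa3 had 2, 5 and 14 reads against 17, 6 and 6, with overlap, at a log2 change of -1.24 (SE 0.80 and adjusted p = 0.930, edgeR). Without sham replicate 1 that value was -0.49, and without SCI replicate 3 it was -2.25. Rasa1, the p120 Ras GAP, had 3, 2 and 0 reads against 0, 3 and 0.

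Rab exchange factors with a DENN domain held 3 of the 6 most-read hosts. Dennd5b had 76, 79 and 66 reads in SCI, against 51, 43 and 16 in sham, or 5867 ± 279 and 5386 ± 2914 CPM (SD, n = 3 each), at a log2 change of 0.14 (SE 0.37). Its sham replicate 3 stood apart at 2022 CPM, where the other sham libraries had 7045 and 7092 CPM, and without it the log2 change was -0.21. Dennd1b and Dennd1a both encode exchange factors for Rab35, which acts in endosome recycling. Dennd1b had 41, 32 and 17 reads against 23, 18 and 16 (-0.19, SE 0.40), and Dennd1a 17, 16 and 10 against 2, 13 and 17 (-0.41, SE 0.64). All 3 hosts overlapped between groups.

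Rab GAPs were many and thinly read, with 16 hosts and 117 reads. Tbc1d32, known in mouse for a role in cilia and Hedgehog signalling, had 4, 11 and 0 reads in SCI, against 5, 4 and 0 in sham (-0.16, SE 1.31). Tbc1d1, studied for glucose transporter traffic in muscle, had 5, 7 and 2 reads against 0, 1 and 0. Tbc1d15, a GAP for Rab7, had 3, 8 and 3 reads against 0, 1 and 0. Each of these last hosts had 14 SCI reads and 1 sham read, a ratio to totals of 7.75 with an exact 95% interval of 1.18 to 328, and neither reached the filter. That interval takes in counting error but not the spread between libraries, so it is no test of the groups.

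Arf GAPs held the host with the smallest p of the 14. Arap2 encodes a GAP for Arf6. It had 10, 1 and 2 reads in SCI, against 6, 7 and 22 in sham, which at their depths were 769, 77.9 and 170 CPM against 829, 1154 and 2780 CPM. All 3 SCI libraries lay below all 3 sham libraries, by a narrow margin between SCI replicate 1 and sham replicate 1. The log2 change was -2.19 (SE 0.85, 95% interval -4.01 to -0.36), and it did not pass after adjustment (unadjusted p = 0.0221, adjusted p = 0.651, edgeR). It lay at -1.44 without sham replicate 3, -1.69 without SCI replicate 2 and -3.55 without SCI replicate 1, and the adjusted p over all alternatives was 0.343 to 0.991. Endothelium and pericyte markers, given above, were also lower in SCI without overlap, and their part in this value was not tested. Agap1, a GAP for Arf1 that works with an endosomal coat, had 33, 39 and 28 reads against 10, 10 and 21, with overlap (0.47, SE 0.39, adjusted p = 0.938, edgeR). Asap2 had 0, 1 and 6 reads against 2, 0 and 0. Of the 14 hosts tested, Arap2 and Rasa2 were the 2 whose CPM did not overlap between groups, or 14.3%, beside 15% of all 647 hosts (9.89% with SCI higher, as Rasa2, and 5.1% with SCI lower, as Arap2), a share near the background.

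**Figure D3:**
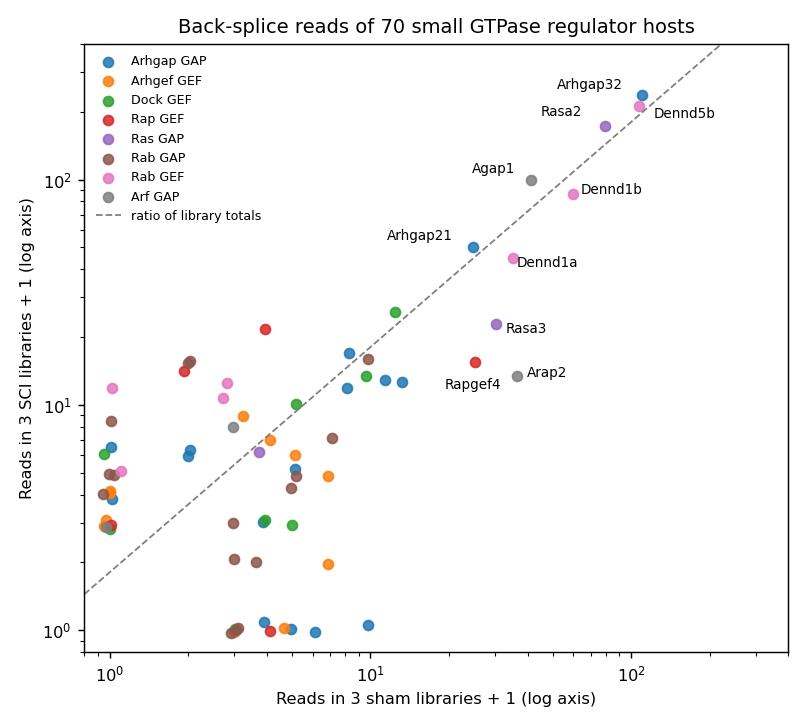
Reads summed over 3 SCI libraries against 3 sham libraries for 70 of the 72 hosts (both +1, log axes), coloured by family; the dashed line marks the ratio of the library totals, 1.81, and points are shifted slightly so that ties can be seen. The most-read hosts lie near the line, and hosts with few reads scatter to both sides of it.

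The 58 hosts under the filter had 2 to 29 reads each, with a median of 6, and 291 reads in SCI against 172 in sham. Of these, 31 had reads in both groups, 16 in SCI libraries only and 11 in sham libraries only, and 19 had reads in 1 library only. Hosts seen in 1 group only had at most 11 reads. Among those with reads in SCI only, 2, chosen after their values were seen, had reads in all 3 SCI libraries: Dennd4a with 4, 6 and 1, and Tbc1d8 with 3, 3 and 2. In the other direction Arhgap24 had 9 reads, all in sham replicate 1. As shares, 22.2% of the 72 hosts were seen in SCI only and 15.3% in sham only, beside 34.7% and 15.4% of all 4443 hosts.

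Tested one junction at a time, 0 of the 14 circRNAs of these hosts that passed the filter were called at an adjusted p under 0.05, and 0 had an unadjusted p under 0.05 (edgeR's quasi-likelihood test). DESeq2 also called 0, with 0 at an unadjusted p under 0.05, beside 2 and 41 of all 484 circRNAs. Over all 484 circRNAs tested, 1 was called, or 0.207%, and 6.2% had an unadjusted p under 0.05. The other 195 circRNAs were under the filter, 62 of them with 2 reads in all. Of the 14, 9 had a positive log2 fold change and the median was 0.13, beside 272 of 484 and 0.09 over all. In simulated counts, 538 circRNAs were tested. Of those changed 2-fold, 3.45% were called, with 49.2% of those changed 4-fold and 82.0% of those changed 8-fold. Every circRNA again had the same dispersion, and the percentages are over changed circRNAs that passed the filter. Of the 14, the CPM of 1 did not overlap between groups, beside 14.9% of all 484 (9.71% with SCI higher, as for this loop of Arhgap32, and 5.17% with SCI lower).

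The most-read circRNA was that of Dennd5b (chromosome 4, 247626310 to 247664961, minus strand, sense overlapping, no circBase identifier). It had 76, 74 and 62 reads in SCI, against 44, 42 and 12 in sham (0.16, SE 0.40) and made up most of its host's reads in every library, from 75% in sham replicate 3 to all of them in SCI replicate 1. The 10 most-read circRNAs came from 7 hosts. Those of Rasa3 (chromosome 16, 80846985 to 80870906, minus strand) and Dennd1b (chromosome 13, 61119948 to 61152916, plus strand) lay at -1.05 (SE 0.82) and -0.45 (SE 0.79). That of Rasa3 was at -2.03 without SCI replicate 3 and -0.49 without sham replicate 1. That of Arhgap21 (chromosome 17, 89447991 to 89460617, minus strand) had 14, 11 and 11 reads against 3, 8 and 2 (0.51, SE 0.79), and stood at 1.52 without sham replicate 2. All 3 are exonic.

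Arhgap32 had circRNAs with log2 changes of either sign, and none of those tested passed. Its 2 most-read loops start at the same position of chromosome 8 (33330162, plus strand, both exonic). The shorter one ends at 33335550 and spans 5.39 kb, and the longer one ends at 33353264 and spans 23.1 kb. The shorter loop had 37, 21 and 19 reads in SCI, against 18, 17 and 18 in sham, at a log2 change of -0.38 (SE 0.42 and adjusted p = 0.971, edgeR). The longer loop had 34, 29 and 26 reads in SCI, against 3, 12 and 6 in sham, so that all 3 SCI libraries lay above all 3 sham libraries (1.14, SE 0.57, 95% interval -0.06 to 2.34, adjusted p = 0.728, edgeR). Without sham replicate 2 the value for the longer loop was 2.01. The loop from 33296975 to the end site of the longer one had 14, 15 and 8 reads against 5, 4 and 1 (0.92, SE 0.83).

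Set against each other, the longer loop had 0.919, 1.38 and 1.37 reads per read of the shorter one in SCI, and 0.167, 0.706 and 0.333 in sham. The shorter loop took 38.5%, 29.6% and 27.1% of the Arhgap32 back-splice reads in SCI and 58.1%, 40.5% and 52.9% in sham. The means were 31.8% ± 6.0 and 50.5% ± 9.05 (SD, n = 3 each), without overlap. The same share, that of the most-read circRNA within its host, was compared for all 11 hosts that had a read in each library and more than 1 circRNA. Arhgap32 and Arap2 were the 2 whose groups did not overlap, each with p = 0.10 by an exact permutation test, two-sided, and 0.55 after adjustment over the 11. The Arap2 shares in SCI rest on only 10, 1 and 2 reads of the host. With 3 libraries a group p cannot fall below 0.10, and the shares were compared only after their values were known. No such comparison was made over all hosts of the table, so the 2 of 11 have no background share beside them.

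**Figure D4:**
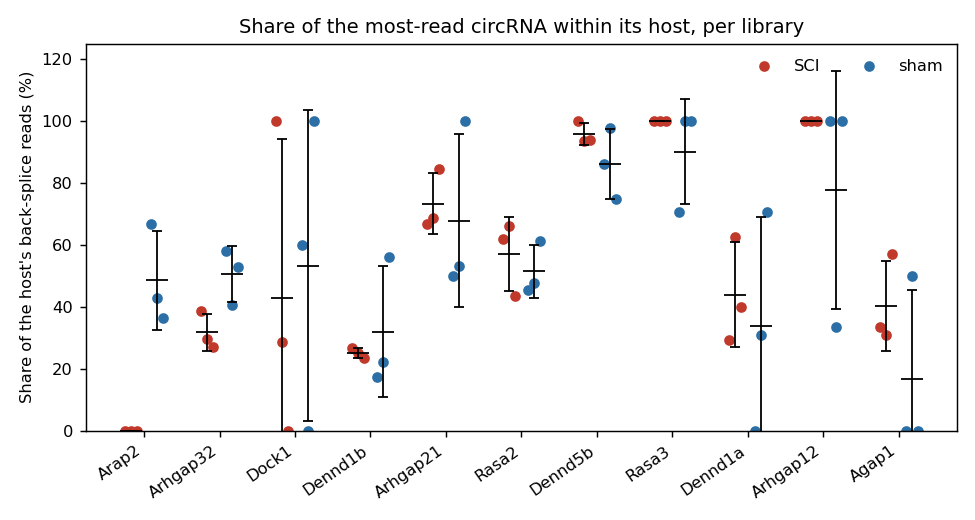
Share of a host's back-splice reads (percent, y axis) that its most-read circRNA took in each library, for 11 hosts; SCI red, sham blue, black bars mean and SD over 3 libraries. The groups do not overlap for Arap2 (0% in SCI, of 10, 1 and 2 host reads) and Arhgap32, and overlap for the other 9.

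Each of the 9 Arap2 circRNAs had reads in 1 group only. Its most-read circRNA (chromosome 14, 49040322 to 49059153, plus strand, exonic, predicted length 576 bases) had 4, 3 and 8 reads in sham and 0 in each SCI library. The ratio to totals of this circRNA was 0, with an upper exact limit of 0.154. That limit takes in counting error but not the spread between libraries. With the SCI group set to a floor of 3 reads, this circRNA was 9.03-fold lower in SCI. That value depends on the floor and is not a lower bound. This circRNA was under the filter on low counts. It was the only circRNA of these hosts with 3 or more reads in each library of 1 group and 0 in the other. Of all 11061 circRNAs, 2 followed this pattern with reads in sham, or 0.0181%, and 37 with reads in SCI, or 0.335%. Loops that share 1 of its ends, 49040322 to 49048212 and 49048138 to 49059153, had 2 and 4 reads, each in 1 sham library. A loop that starts at 49048138 and runs on to 49070246 had 3, 1 and 2 reads in SCI and 0 in sham. The remaining 5 Arap2 circRNAs had reads in 1 library each, 2 to 7 of them.

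Rasa2 loops shared a start and differed in their end. Of its 256 reads, 254 came from 4 exonic loops with the 5′ end at 103956960 on chromosome 8 (minus strand). The loop to 103935651, with a predicted length of 394 bases, had 39, 41 and 24 reads in SCI, against 10, 11 and 19 in sham (0.48, SE 0.43). The loop to 103947239, of 317 bases, had 21, 19 and 28 against 12, 12 and 5 (0.30, SE 0.55). The larger of these took 57.2% ± 11.95 of the host's reads for SCI and 51.5% ± 8.54 for sham (SD, n = 3 each), with overlap.

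**Figure D5:**
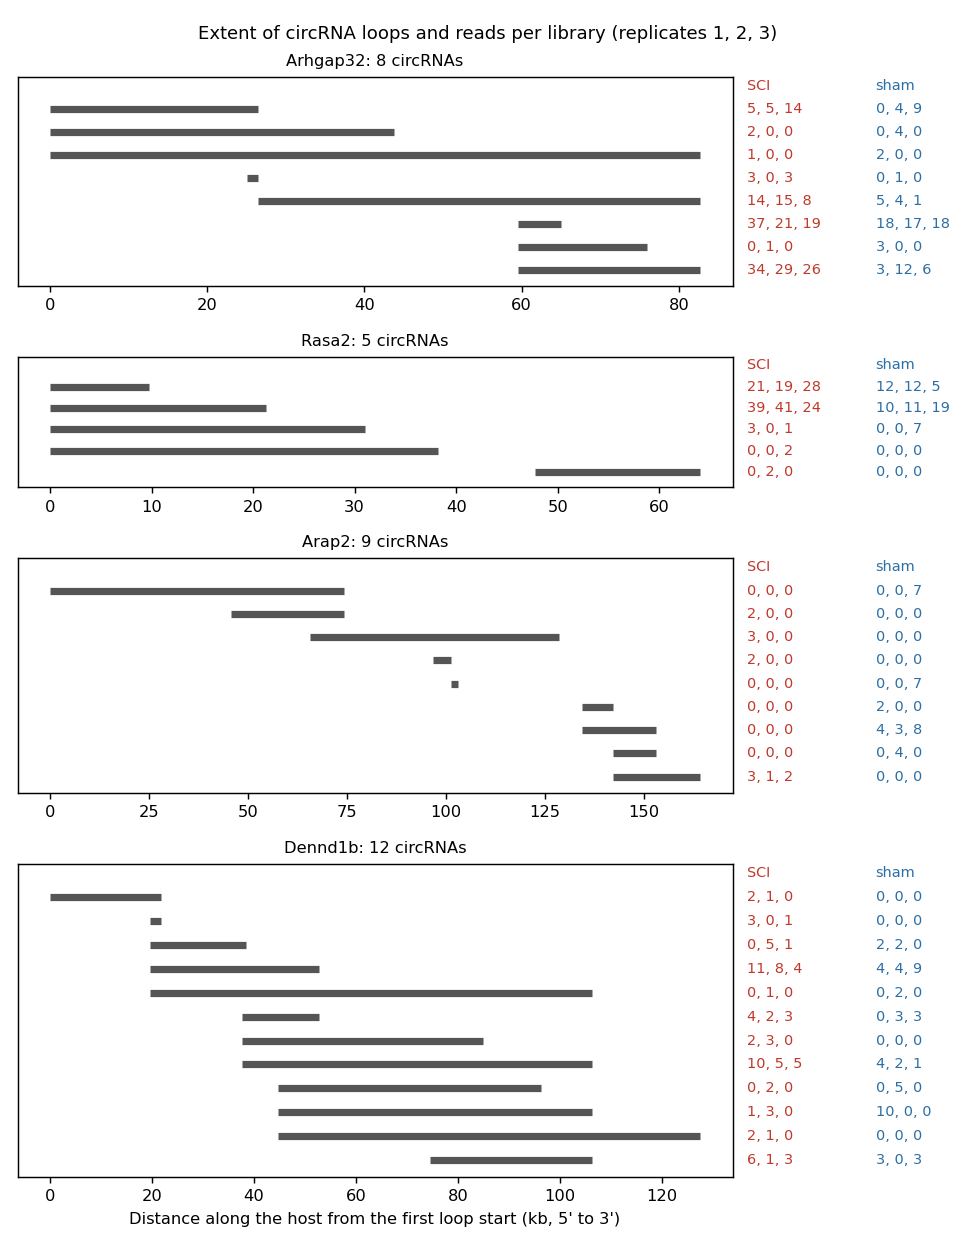
Extent of every circRNA of Arhgap32, Rasa2, Arap2 and Dennd1b as a bar along the host, in kb from the most upstream loop start, with its reads in SCI (red) and sham (blue) replicates 1, 2 and 3 at the right. Loops of one host often share a start or an end, and the most-read Arap2 loop has reads in all 3 sham libraries and in no SCI library.

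Dennd1b, Agap1 and Arap2 had the most circRNAs, with 12, 10 and 9. All 12 of Dennd1b are exonic, and none had more than 40 reads. Of the 3 most-read Agap1 loops (chromosome 9, plus strand), 2 share a 3′ end at 96467517. The one from 96461836, the most-read of the host, had 11, 12 and 16 reads in SCI, against 0, 5 and 0 in sham (1.96, SE 1.09, adjusted p = 0.791, edgeR), with sham replicate 2 as the only sham library with reads. Without that library the log2 change was 6.49, a value that depends on the prior count because no sham reads are left (adjusted p = 0.153, edgeR). The one from 96438897 had 9, 7 and 3 reads against 5, 4 and 0 (0.10, SE 1.08). The loop from 96558905 to 96576933, sense overlapping and second in reads, had 5, 10 and 0 reads against 5, 1 and 10, and the groups overlapped. Its log2 change was -0.94 (SE 1.07), and it was -0.12 without sham replicate 3, -0.31 without SCI replicate 3 and -1.84 without SCI replicate 2.

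Shared loop ends were common. Of 179 circRNAs from the 42 hosts with more than 1 circRNA, 115 shared a start or an end with another loop of the host, or 64.2%, beside 60.5% over all sense circRNAs with a host. Starts were shared by 75 and ends by 65. The 72 hosts had 2.90 circRNAs each on average, against 2.31 over all hosts. Their circRNAs were exonic in 75.6% of cases (67.7% over all), and 44.0% had a circBase identifier (41.7%). The genomic span had a median of 16.3 kb (quartiles 5.47 and 34.8 kb), where that of all sense circRNAs with a host was 10.97 kb (3.39 and 26.2 kb), and 14.4% spanned 50 kb or more (9.62%). For 128 of the 158 exonic ones the deposited predicted length differs from the span, as a spliced length would, and its median was 518 bases, beside 582 bases over all. No test was run on these features, since circRNAs of 1 host are not independent. Of the 209 circRNAs, 122 were seen in 1 library only (58.4%, beside 56.7%) and 12 in all 6 (5.74%, beside 3.69%).

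Other genes of the same pathways gave no call either, among 6 lists that can overlap these hosts in function but share no gene with them. Of 56 further regulators of Rac, Cdc42 and related GTPases 4 were tested, all with negative values: Fam13b (-2.49, SE 1.11), Prex2 (-1.11, SE 0.51) and Tiam1 (-0.62, SE 0.88) had the smallest p. Prex2 and Tiam1 encode exchange factors for Rac. Of 34 further Ras, Rap and Ral regulators 6 were tested, 2 positive, among them Nf1, the neurofibromin Ras GAP (-0.42, SE 0.47), Ralgps2 (0.44, SE 0.78) and Spred2 (-0.19, SE 0.71). Of 35 further Rab regulators 4 were tested, 3 positive: Rabgap1l had 15, 19 and 9 reads against 3, 2 and 0 (2.18, SE 0.95, adjusted p = 0.699, edgeR), Sgsm1 stood at 2.11 (SE 1.04) and Evi5 at -0.66 (SE 0.88). Among 30 further Arf regulators Psd3 was tested (0.17, SE 0.39), and among 82 small GTPases Rab11a (0.07, SE 0.63). Of 56 effectors 8 were tested, 6 of them positive, with Cdc42bpa at 1.14 (SE 0.84), Rims2 at 0.32 (SE 0.33) and Exoc2 at 0.71 (SE 0.83). Across the 6 lists 0 of 24 tested hosts passed by edgeR, beside 0.309% of all hosts, and 0 passed by DESeq2. By edgeR 3 of the 24 had an unadjusted p under 0.05, beside 42 of all 647 hosts. By DESeq2 it was 4 of the 24, beside 52 of 647.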

How the data were processed

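Back-splice junction reads were counted in 6 rat spinal cord libraries (3 SCI, 3 sham). The authors deposited whole-number counts per circRNA, not normalised, and log2 CPM made with edgeR, per the file headers; the log2 values were not used for tests. The predicted circRNA length is the authors' deposited value. Bowtie 0.12.2 and mm8, which is a build of the mouse genome, are listed per the submitters' processing notes. The sources used here give neither the circRNA caller nor the build of the coordinates, so coordinates are as deposited. The TruSeq RNA kit named in the labels' protocols does not mark strand. The deposited data still give each circRNA a strand and class 112 as antisense, and how these were assigned is not given. That kit as sold selects poly(A) RNA, which circRNAs lack, and whether this step was kept is not given. Every circRNA has 2 or more reads in some library.

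Counts were summed by host without antisense circRNAs. Hosts and circRNAs were each tested on the whole table with edgeR 4.0.16 (R 4.3.3): TMM scaling, filterByExpr (minimum count 5, minimum total 15), group as the only term, quasi-likelihood F test, Benjamini-Hochberg adjustment. SE is the log2 fold change over the root of F. CPM are over tested features. Alternatives were DESeq2 1.42.0, other scalings and filters, a replicate block, antisense circRNAs added and each library left out. Exact tests used SciPy 1.17.1. Scripts were tested on simulated data with 200 changed features. Ratios to totals have exact binomial 95% intervals, and shares have Wilson intervals. Members and gene lists were chosen with earlier results of these data known. Named are all tested hosts, the 3 most-read hosts per family, the 10 most-read circRNAs, the 3 hosts with the most circRNAs, circRNAs with 3 or more reads in every library of 1 group and 0 in the other, and up to 3 hosts per pathway list. Other names were chosen after their values were seen. Some hosts that this choice would name are not reported here by name, though the counts and sums include them.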

Additional observations from a re-analysis of the deposited data

How the results depend on the processing

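No small GTPase regulator host or circRNA was called in any of the 13 host and 12 circRNA alternatives, so that count stayed at 0. The count over all hosts was 2 and became 1 with DESeq2 size factors in edgeR, with the replicate block and with antisense circRNAs added, 7 with no filter and 4 with DESeq2, and with a library left out it was 0 to 8. Over all circRNAs it was 1 and became 2 without scaling factors, with a minimum count of 10, with DESeq2 and with the replicate block, 0 with no filter, and 0 to 3 with a library left out. The replicate numbers were not taken as pairs, since neither the labels nor a correlation over 0.1 in every pair ties them. Deviations of same-numbered libraries correlated at -0.0103, 0.0605 and 0.0339 over hosts. Over circRNAs they correlated at 0.103, 0.0617 and 0.0900, so that there each library correlated best with its own number, a hint from the data only. All 6 pairs of different numbers were below 0 (-0.0809 to -0.0159). Deviations were taken from group means, which pushes these values down when same-numbered ones are above 0. They therefore add nothing to the hint. The block changed no call among these hosts.

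The mean share of reads in SCI, 2.15%, was 2.40% with Tbc1d5 added, 1.77% without Arhgap32 and 2.33% of reads with a host gene, and 2.10% to 2.23% with a library left out. In sham, 2.23% became 2.53% with Tbc1d5 added, 1.91% without Arhgap32 and 2.42% of reads with a host gene. With a library left out it was 2.11% to 2.40%.

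Of 317 alternative values for 13 tested hosts and 14 circRNAs, 290 kept their direction and 27 turned, and none passed the test. With a library left out, the log2 fold change of a host lay between -1.30 and 0.39 for Arhgap10, -0.23 and 1.44 for Arhgap21, -0.81 and 0.075 for Dennd1a, -0.43 and 0.089 for Dennd1b, -0.21 and 0.53 for Dennd5b, -0.25 and 1.84 for Dock3, and -0.71 and 0.41 for Tbc1d32. Arhgap10 fell under the filter when any SCI library was left out, as did Dock3 and Tbc1d32 without SCI replicate 2. Their ranges leave out these fits. For single circRNAs, also with a library left out, the log2 fold change lay between -0.70 and 0.064 for Dennd1b, -1.02 and 0.75 for Dennd1a, -0.15 and 0.59 for Dennd5b, -0.61 and 1.11 for the Arhgap32 loop from 33270577, and -0.37 and 0.77 for the Agap1 loop from 96438897. That Arhgap32 loop, at 0.05, was at -0.0013 with DESeq2 size factors in edgeR and -0.043 without scaling factors. With no filter, Dennd1b was at 0.15, Tbc1d32 at 0.14, the circRNAs of Dennd1b and Dennd1a at 0.15 and 0.010, and the shorter Arhgap32 loop at 0.20. The cause of these turns was not tested. The difference in share of the shorter Arhgap32 loop, -18.7 percentage points, lay between -23.7 and -14.95 with a library left out (chosen after the data were seen), and that of the longer one, 19.2, between 14.7 and 24.1. Low counts limit all of these values.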
